A study of Cricetulus griseus with 16 samples.

Results

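TRiC, also called CCT, is the chaperonin of the cytosol, and the genes of its subunits were followed through mild and moderate heat in CHO cells, an established Chinese hamster ovary line (ATCC CCL-61). The complex is built from 8 different subunits, encoded by Tcp1, Cct2, Cct3, Cct4, Cct5, Cct6a, Cct7 and Cct8, and its members were taken from the count table by these names, ignoring case. Of the 8 names, 6 were found among 20824 genes: Tcp1 (ENSCGRG00001007629), Cct2 (ENSCGRG00001007289), Cct4 (ENSCGRG00001016718), Cct5 (ENSCGRG00001003625), Cct7 (ENSCGRG00001010276) and Cct8 (ENSCGRG00001001310). Cct3 and Cct6a were absent by name and were not analysed here. The table lists 4423 genes by identifier only, and no name was guessed for them.

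TRiC is a barrel of a pair of stacked rings, each ring holding 1 copy of every subunit, and it closes over an unfolded protein when its subunits hydrolyse ATP. Actin and tubulin are its best known clients, and they reach it with the help of prefoldin, a smaller chaperone that hands over nascent chains. The subunits are unequal: those of Tcp1, Cct2, Cct4 and Cct5 form the side of the ring that uses ATP more readily, and those of Cct3, Cct6a, Cct7 and Cct8 form the other side.

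Cells were seeded 24 h before treatment, grown in Ham's F-12K medium with serum, and either kept at 37 °C, held at 40 °C for 1 h or for 6 h, or held for 1 h at 42.5 °C. Each group had 4 cultures of this single line, lettered A to D, which the study calls biological repeats. Total RNA was purified on a column, treated with DNase and sequenced as paired reads. The design asks how the temperature and the length of a heat treatment change the transcriptome.

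The libraries held between 10504192 and 14668365 counts. Levels are given as CPM, the usual depth-scaled count, corrected by TMM, a factor that sets the bulk of genes equal between libraries. Every subunit had at least 6044 counts in every library, far above the floor of 3 counts, which corresponded to between 0.205 and 0.286 CPM. These limits cover counting error only. Culture 37 °C D was left out of the comparisons, and 15 of 16 libraries were used. The study left out the same culture. The mesenchymal markers Vim (1826 to 2702 CPM), Fn1 and Sparc were expressed in all libraries, whereas Col1a1 and Col1a2 had at most 2 and 4 counts. The blood cell markers Ptprc and Cd74 had at most 1 and 2 counts, the epithelial markers Epcam and Krt19 at most 1, and Cdh1 between 1.71 and 4.15 CPM. Of 4 granulosa cell markers, Foxl2, Fshr and Cyp19a1 had 0 counts in every library and Amh was between 1.91 and 7.14 CPM. Of 11 listed heat-inducible chaperone genes, 7 were found by name, and 6, 6 and 7 of these passed as higher than at 37 °C after the short and the long treatment at 40 °C and after 42.5 °C, respectively, beside 1.07%, 14.7% and 20.8% of all genes tested. With all 4 controls in edgeR's fit these counts were 0, 5 and 7, with medians of 0.81, 0.60 and 2.70 on the log2 scale. This list was chosen with earlier results of these data known, so its counts are no independent check.

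After 1 h at 42.5 °C, 5 of the 6 measured subunit genes rose by a modest amount. Cct2 rose by 20.9% over 37 °C, Tcp1 by 19.7%, Cct4 by 18.6%, Cct8 by 14.3% and Cct7 by 12.2%. Cct5 did not pass the test, with a value 6.23% higher. None of the 6 reached a fold change of 1.5. Over all genes tested, 20.8% passed as higher in this comparison and 22.3% as lower, and 7.51% passed with a fold of at least 1.5. The median log2 fold change of the subunits was 0.22, beside -0.0017 for all genes. Here and below, a gene rose or fell when its Benjamini-Hochberg adjusted p in edgeR's quasi-likelihood test was under 0.05. A level in RNA from a whole culture is a share of that RNA, so it gives neither the number of cells nor the amount of RNA per cell. The p values measure the spread between these cultures.

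Cct2 encodes the beta subunit. Its level was 723, 691 and 754 CPM in 37 °C cultures A, B and C, and 839.6, 855, 866 and 901 CPM in 42.5 °C cultures A to D. The lowest heated culture was thus above the highest of these controls, though not above the left-out 37 °C D. The log2 fold change was 0.27 (SE 0.04, 95% interval 0.19 to 0.36, adjusted p = 7.35e-05).

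Cct4 encodes the delta subunit. It was at 645, 642 and 674 CPM in 37 °C cultures A to C and at 736, 762, 739 and 835 CPM at 42.5 °C. The groups did not overlap with 37 °C D left out, although culture D at 42.5 °C was higher than the other heated cultures. The log2 fold change was 0.25 (SE 0.05, adjusted p = 0.000504).

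Tcp1 encodes the alpha subunit, the first of the family to be described. It was at 519.7, 603 and 641 CPM at 37 °C and at 617, 723, 709 and 738 CPM at 42.5 °C. Its groups overlapped, since heated culture A lay below control C, and both A cultures were the lowest of their group. The log2 fold change was 0.26 (SE 0.07, 95% interval 0.12 to 0.40, adjusted p = 0.00577).

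Cct5 encodes the epsilon subunit, which is known from inherited sensory neuropathy. It was at 663, 702 and 728 CPM at 37 °C and at 699, 736, 754 and 750.3 CPM at 42.5 °C. The groups overlapped and the log2 fold change was 0.09 (SE 0.04, 95% interval -0.003 to 0.18, adjusted p = 0.11).

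On the other side of the ring, Cct7, the eta subunit, was at 778, 739 and 766 CPM at 37 °C and at 828, 846, 822 and 888 CPM at 42.5 °C. Cct8, the theta subunit, was at 881, 878 and 937 CPM at 37 °C and at 991, 1003, 1053 and 1026 CPM at 42.5 °C. All heated cultures of both genes lay above 37 °C cultures A to C, whereas the left-out 37 °C D was above all heated cultures of both. The log2 fold change was 0.17 for Cct7 (SE 0.04, adjusted p = 0.00301) and 0.19 for Cct8 (SE 0.04, adjusted p = 0.00105). With 37 °C D left out, 4 of the 6 subunits had groups that did not overlap, all higher. This held for 20.3% of all genes tested.

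**Figure D1:**
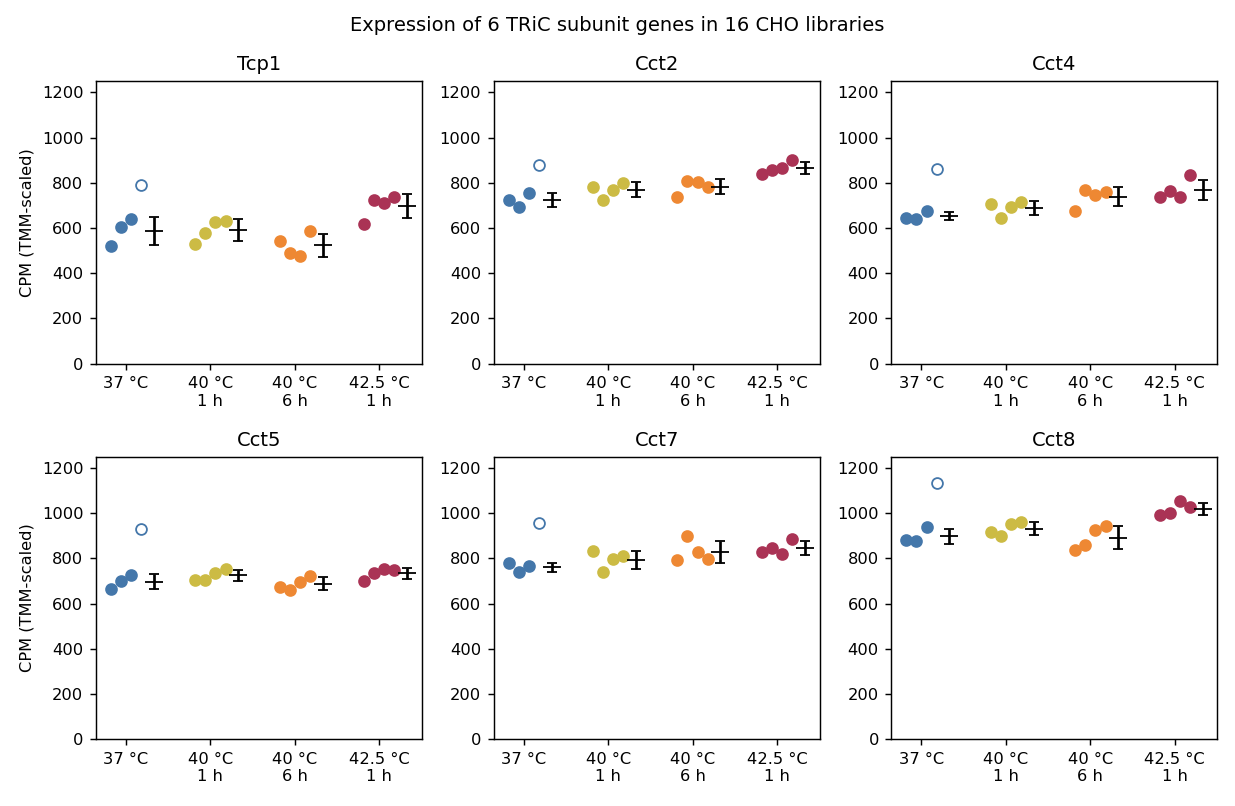
Level of each of the 6 subunit genes in all 16 libraries, as TMM-scaled CPM on the vertical axis, by group on the horizontal axis. Filled points are single libraries in the order A to D, open points are the left-out 37 °C D, and bars give the mean ± SD without it; the 42.5 °C points of Cct2, Cct4, Cct7 and Cct8 lie above all filled 37 °C points, and the open points above all filled 37 °C points of every gene.

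The sum of the 6 subunit genes was highest at 42.5 °C. It was 4321 ± 156 CPM at 37 °C (SD, n = 3), 4501 ± 163 CPM at 40 °C 1 h, 4455 ± 139 CPM at 40 °C 6 h and 4929 ± 175 CPM at 42.5 °C (n = 4 each). At 42.5 °C all cultures, between 4710.0 and 5138 CPM, were above the 37 °C cultures, between 4211 and 4499 CPM. The left-out 37 °C D, at 5553 CPM and 0.535% of its counts, was above every 42.5 °C culture. As a share of all counts, the 6 genes made up 0.441% ± 0.0167 at 37 °C and 0.482% ± 0.0144 at 42.5 °C.

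The calls against 37 °C depended on the left-out culture. In 37 °C D all 6 subunits were higher than the mean of A, B and C, from 1.22-fold for Cct2 to 1.35-fold for Tcp1, with levels of 791 CPM for Tcp1, 879 for Cct2, 862 for Cct4, 932 for Cct5, 958 for Cct7 and 1132 for Cct8. These differences stood at percentiles 77.2 to 88.3 of 10236 genes. With all 4 controls in the fit, 0 of the 6 passed at 42.5 °C, with log2 fold changes from -0.0139 for Cct5 to 0.21 for Cct2 and edgeR's adjusted p between 0.0698 and 0.94. The spread of the 4 controls enters that fit as well as their mean.

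The scaling moved the count less. At 42.5 °C, 48.3% of all genes that passed were higher with TMM and 26.8% with plain library totals, and the median log2 fold change of all genes was -0.0754 with library totals. On that scale 4 of the 6 subunits rose, and Cct7 had an adjusted p of 0.0588, within a range of 0.000314 to 1 over its 17 alternatives, where 1 comes from the test against a fold of 1.5.

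After 6 h at 40 °C the 6 subunits had values of both signs, 3 higher and 3 lower than at 37 °C, and 0 passed as lower. Cct4 rose 1.13-fold, and it was the only one of the 6 to pass. Cct7 and Cct2 had higher values that missed the threshold, Tcp1 had a lower value that missed it, and Cct5 and Cct8 were close to their 37 °C level. Over all genes tested, 14.7% passed as higher and 14.8% as lower, and the median log2 fold change of the 6 was 0.05.

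Cct4 was at 676, 769, 747 and 760.3 CPM in the 40 °C 6 h cultures. All of them were above 37 °C cultures A to C, with culture A only just so. The log2 fold change was 0.18 (SE 0.05, 95% interval 0.07 to 0.28, adjusted p = 0.0136). This call ended without 37 °C A (adjusted p = 0.055), without 37 °C B (0.0616) and with all 4 controls (0.685), and the adjusted p ranged from 0.0016 to 1 over 17 alternatives.

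Cct7 was at 795, 899, 828 and 796 CPM after 6 h at 40 °C, above 37 °C A to C, with culture B the highest. The log2 difference was 0.13 (SE 0.05, adjusted p = 0.069). Cct4 and Cct7 were thus the 2 subunits without overlap, which held for 17.8% of all genes on the higher side.

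Cct2 was at 737, 809, 804 and 783 CPM, and its culture A lay within the range of the controls. The log2 difference was 0.12 (SE 0.05, adjusted p = 0.078). For Cct5 the 40 °C 6 h cultures were at 673, 661, 695 and 724 CPM, and for Cct8 at 839, 861, 926 and 943 CPM. Both ranges overlapped those of the controls, with log2 fold changes of -0.02 (95% interval -0.12 to 0.09, adjusted p = 0.819) and -0.0087 (95% interval -0.12 to 0.10, adjusted p = 0.918).

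Tcp1 was at 541, 491, 477 and 587 CPM after 6 h at 40 °C. Cultures B and C were below every 37 °C culture and the other two were within their range. The log2 fold change was -0.16 (SE 0.07, 95% interval -0.31 to -0.01, adjusted p = 0.0933). Tcp1 passed as lower in 4 of 17 alternatives, over which its adjusted p ranged from 0.0176 to 1. Among these were the fits without 37 °C A (-0.24, adjusted p = 0.0242) and without 40 °C 6 h D (adjusted p = 0.0301). The others had no filter on low counts (-0.17, adjusted p = 0.0176) or the replicate letter as a block. Tcp1 was also the most variable subunit, with an SD of 61.9 CPM around a mean of 588 CPM at 37 °C.

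After 1 h at 40 °C no subunit passed the test. All 6 values were slightly higher than at 37 °C, with log2 fold changes between 0.01 for Tcp1 and 0.09 for Cct2, and all 6 pairs of groups overlapped, while 6.68% of all genes lay wholly higher. The background was low here, as 1.07% of all genes passed as higher and 0.572% as lower. The count was 0 with edgeR's adjusted p, 0 at an unadjusted p under 0.05, and 0 with DESeq2.

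The cultures were close to the controls for every subunit. Cct2 was at 783, 723, 769.7 and 799.6 CPM, Cct4 at 707, 646, 691 and 713 CPM, and Cct7 at 832, 739, 796 and 811 CPM. Tcp1 was at 528, 579, 627 and 632 CPM, with culture A again the lowest. Cct5 was at 706, 705, 737 and 754 CPM and Cct8 at 917, 898, 951 and 962 CPM. The upper ends of the 95% intervals were at most 0.19 on the log2 scale, reached by Cct2, so that a rise of the size of Cct2's at 42.5 °C lay outside them.

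**Figure D2:**
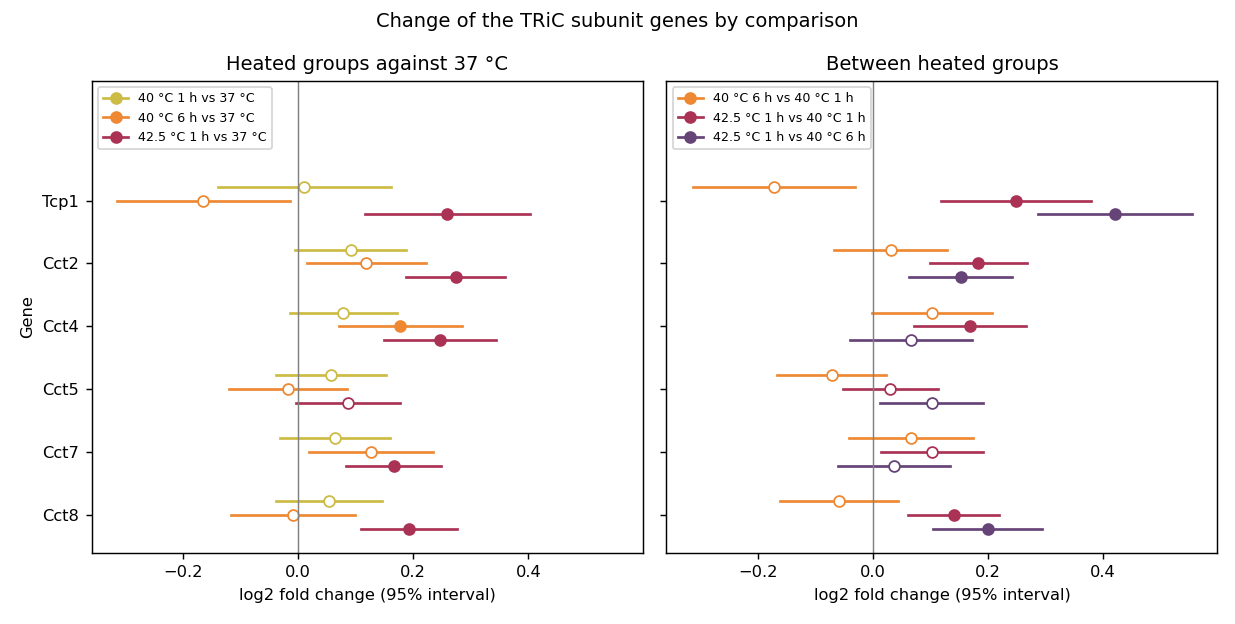
Log2 fold change of each subunit gene, with its 95% interval, on the horizontal axis, for the 3 comparisons with 37 °C on the left and the 3 between heated groups on the right. Filled points passed an adjusted p under 0.05 and open points did not; 5 filled points belong to 42.5 °C against 37 °C, 1 to 40 °C 6 h against 37 °C, and 0 to 40 °C 1 h against 37 °C or 40 °C 6 h against 1 h.

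The comparisons between heated groups do not use the 37 °C cultures. At equal length, 42.5 °C gave higher subunit levels than 40 °C: 4 of 6 rose and 0 fell, beside 16.4% and 19.6% of all genes tested. On the log2 scale Tcp1 rose by 0.25 (SE 0.06, adjusted p = 0.00526), Cct2 by 0.18 (SE 0.04, adjusted p = 0.00221), Cct4 by 0.17 (SE 0.05, adjusted p = 0.00971) and Cct8 by 0.14 (SE 0.04, adjusted p = 0.00866). Cct7 had 0.10 (adjusted p = 0.067) and Cct5 0.03 (95% interval -0.05 to 0.11, adjusted p = 0.573). Cct2, Cct4 and Cct8 did not overlap between the temperatures, as 13.6% of all genes did on the higher side, whereas Tcp1 overlapped. With library totals in place of TMM 2 of 6 passed, and the higher share of all passing genes went from 45.6% to 25.8%.

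Against 6 h at 40 °C, 1 h at 42.5 °C gave higher levels for 3 of 6 subunits and lower for 0, beside 22.5% and 24.5% of all genes. Tcp1 showed the greatest difference of any subunit in any of the 6 comparisons, 1.34-fold, with a log2 fold change of 0.42 (SE 0.06, 95% interval 0.29 to 0.55, adjusted p = 4.82e-05). Cct8 rose by 0.20 (SE 0.04, adjusted p = 0.00159) and Cct2 by 0.15 (SE 0.04, adjusted p = 0.00699). The cultures of these 3 genes did not overlap, which held for 18.5% of all genes. Cct4 (0.07, adjusted p = 0.297) and Cct7 (0.04, adjusted p = 0.543) differed little between these heat treatments, with upper 95% limits of 0.17 and 0.13, and Cct5 had 0.10 (adjusted p = 0.0579). DESeq2 called 4 of 6 and library totals 2 of 6, with the higher share of all passing genes at 47.9% with TMM and 33.2% with library totals.

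Between 6 h and 1 h at 40 °C no subunit passed, beside 9.45% of all genes higher and 9.04% lower, and all 6 overlapped, while 10.4% of all genes lay wholly higher. The count was 0 with edgeR's adjusted p and with DESeq2, and 1 at an unadjusted p under 0.05. That gene was Tcp1, with a log2 fold change of -0.17 (SE 0.07, 95% interval -0.31 to -0.03, adjusted p = 0.0834). Cct4 had 0.10 (adjusted p = 0.163) and the other subunits lay between -0.07 and 0.07.

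Since one ring takes up its subunits in equal number, the balance between their mRNAs was described as well. Each gene's log2 level was taken relative to the mean of the 6 in the same library and set to 0 for 37 °C A to C, so the library's depth and scaling drop out. Tcp1 left the others most clearly after 6 h at 40 °C, at -0.20 ± 0.13 (SD, n = 4). Cultures B and C, at -0.30 and -0.33, were below every other library, while A and D, at -0.09 and -0.09, were above 37 °C A, which was at -0.13. Culture A of 40 °C 1 h was also low, at -0.19.

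Cct4 moved the other way after 6 h at 40 °C, at 0.14 ± 0.05, and its 4 cultures, from 0.07 to 0.19, were above 37 °C A to C, from -0.02 to 0.02. Cct5 was relatively lowest after 1 h at 42.5 °C, at -0.12 ± 0.03, and its cultures there, from -0.15 to -0.08, were all below 37 °C A to C, from -0.03 to 0.03. The relative level of Cct8 varied least between groups, with group means from -0.05 to 0. These relative values were not tested, and a gene can be relatively low while its own level is not.

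**Figure D3:**
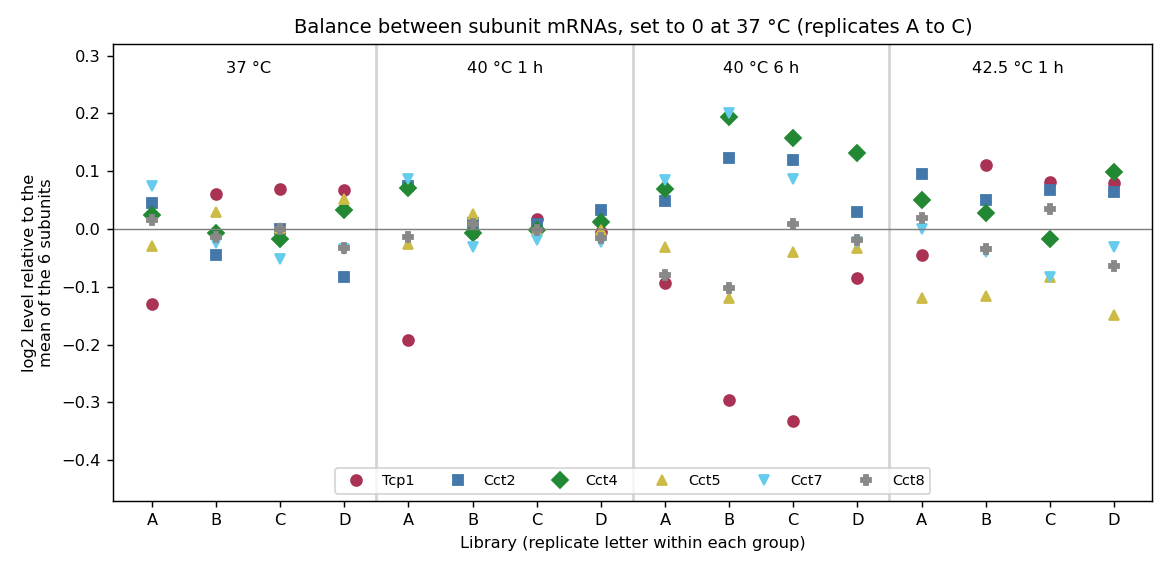
Log2 level of each subunit gene relative to the mean of the 6 in the same library on the vertical axis, set to 0 for the mean of 37 °C A to C, with the 16 libraries on the horizontal axis. Each symbol is 1 gene in 1 library; Tcp1 lies at -0.30 and -0.33 in 40 °C 6 h B and C, and Cct5 lies below 0 in all 42.5 °C libraries.

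The genes of TRiC's partners were described in the same way, beginning with those that deliver clients. Of 6 prefoldin subunit names, 4 were found, and 2 of the 4 rose after 1 h at 42.5 °C, beside 20.8% of all genes. Pfdn1 was at 90.9 CPM against 79.9 CPM at 37 °C, a log2 difference of 0.20 (SE 0.06, adjusted p = 0.0194), and Pfdn4 had 0.14 (adjusted p = 0.0314). Pfdn6 (0.15, adjusted p = 0.0547) and Pfdn5 (0.11, adjusted p = 0.0708) did not pass. The median of the 4 was 0.15, and it was 0.0725 with library totals and -0.0321 with all 4 controls, with 0 of 4 passing in either fit. After 6 h at 40 °C the 4 values lay between 0.03 for Pfdn4 and 0.10 for Pfdn1, and none passed.

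Phosducin-like proteins bind TRiC and help to fold G protein beta subunits and other clients. Pdcl fell after 1 h at 42.5 °C, from 89.4 to 74.6 CPM, a log2 difference of -0.25 (SE 0.06, adjusted p = 0.00269). It remained lower with library totals (-0.32) and, just under the threshold, with all 4 controls (-0.22, adjusted p = 0.0499 by edgeR). Pdcl3 had -0.05 and Pdcl2 was too low to be tested. Thus 1 of the 2 tested genes passed as lower, beside 22.3% of all genes. Among 6 found genes of the prefoldin-like and R2TP complexes, 1 rose and 0 fell at 42.5 °C, beside 20.8% and 22.3% of all genes. That gene was Uxt, which rose by 0.25 (adjusted p = 0.0265). After 6 h at 40 °C 1 of the 6 rose, beside 14.7% of all genes. It was Rpap3, by 0.16 (adjusted p = 0.0201). Uxt did not pass with library totals or with all 4 controls, and Rpap3 did not pass with all 4 controls (0.10, adjusted p = 0.427).

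The tubulin folding cofactors take tubulin over from TRiC and assemble the alpha-beta dimer. All 6 were found, and Tbcc, which acts in the last step, fell from 11.8 to 6.89 CPM at 42.5 °C, a log2 difference of -0.77 (SE 0.13, adjusted p = 0.000234). It passed with a fold over 1.5, and it also passed with library totals and with all 4 controls. Tbca, which holds beta-tubulin, rose by 0.15 (adjusted p = 0.0118), but did not pass with library totals or with all 4 controls. Of the 6 cofactors, 1 thus rose and 1 fell, beside 20.8% and 22.3% of all genes.

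Of 14 names of actins and tubulins, 10 were found and 7 could be tested, and after 1 h at 42.5 °C 3 fell and 0 rose, beside 22.3% and 20.8% of all genes. Tubb4b, a beta-tubulin, went from 677 to 524 CPM, a log2 difference of -0.36 (SE 0.04, adjusted p = 3.35e-06). Actb, cytoplasmic beta-actin, went from 4213 to 3504 CPM, with -0.25 (SE 0.05, adjusted p = 0.000574). Tubb5 went from 1769 to 1525 CPM, with -0.20 (SE 0.04, adjusted p = 0.000463). The heated cultures of all 3 lay below 37 °C cultures A to C, though the share of all genes that did so was not counted. All 3 also fell with library totals, with all 4 controls and against 1 h at 40 °C. The other 4 tested genes had values between -0.03 and 0.06 that did not pass, and the median of the 7 was -0.03. Actin and tubulin genes have many near-identical copies, so reads may be split between them.

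Of 11 other listed clients, 6 fell and 1 rose at 42.5 °C, with a median log2 fold change of -0.17, beside 22.3% of all genes lower and 20.8% higher. Mlst8, a beta-propeller subunit of the mTOR complexes, fell by 0.41 on the log2 scale (adjusted p = 0.00471), Wrap53, a telomerase factor, by 0.34 (adjusted p = 0.0253), Plk1, a mitotic kinase, by 0.30 (adjusted p = 3.94e-05), and Rptor, a subunit of mTOR complex 1, by 0.28 (adjusted p = 8.99e-05). The 1 that rose was Gnb1, a G protein beta subunit, by 0.19 (adjusted p = 0.000756), which is named although the naming rule did not choose it. With all 4 controls 3 fell and 0 rose. Mlst8 and Plk1 still passed in that fit, but Wrap53 (adjusted p = 0.0535) and Rptor (-0.18, adjusted p = 0.218) did not. With library totals 8 fell and 1 rose, on a scale where 26.8% of all genes that passed were higher. After 6 h at 40 °C, Mlst8 (-0.46, adjusted p = 0.00141) and Ccne1 (-0.36, adjusted p = 0.00752) fell, beside 14.8% of all genes.

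**Figure D4:**
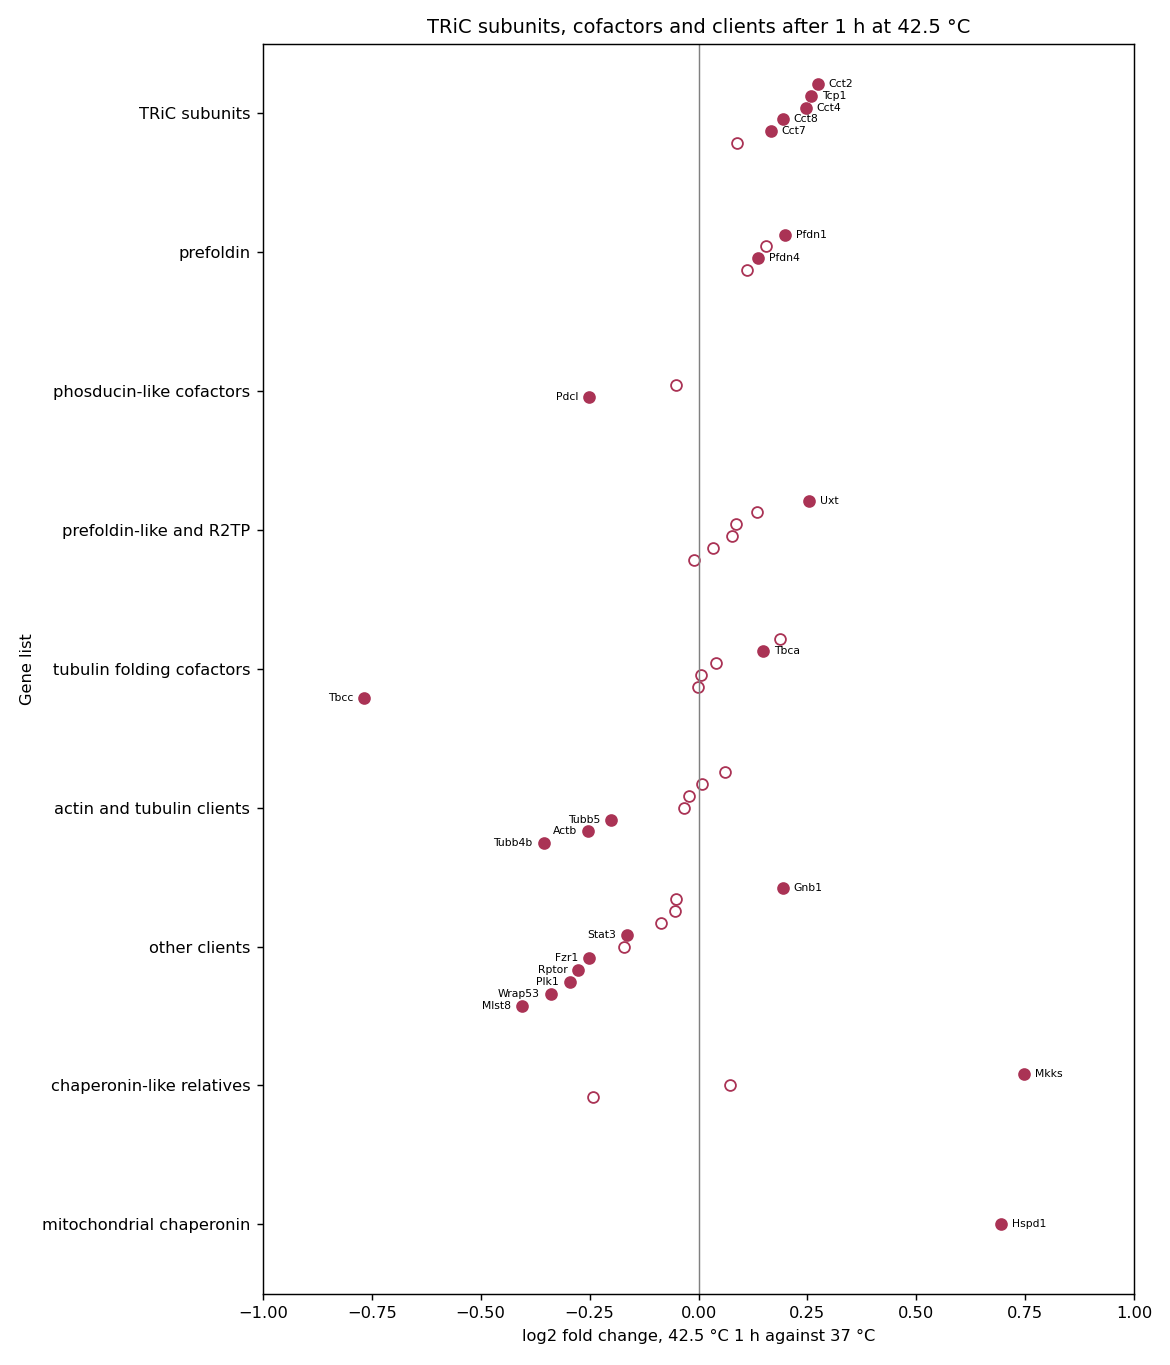
Log2 fold change after 1 h at 42.5 °C against 37 °C A to C on the horizontal axis, for each tested gene of the TRiC subunits and of the lists of cofactors, clients and relatives on the vertical axis. Filled, named points passed an adjusted p under 0.05 and open points did not; the subunits lie between 0.09 and 0.27, Tubb4b at -0.36, Tbcc at -0.77 and Hspd1 at 0.70.

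Hspd1 and Mkks, of other chaperonins, had larger fold changes against 37 °C than any TRiC subunit, though the difference was not tested. Hspd1, the chaperonin of the mitochondrial matrix, rose from 1647 to 2643 CPM at 42.5 °C, a log2 difference of 0.70 (SE 0.09, adjusted p = 2.3e-05), and by 0.25 after 6 h at 40 °C (adjusted p = 0.00544). The 42.5 °C call held with all 4 controls (0.65, adjusted p = 0.00446), whereas that at 40 °C did not (adjusted p = 0.175). Mkks, a chaperonin-like protein that acts in assembly of the BBSome, rose by 0.74 after 6 h at 40 °C and by 0.75 at 42.5 °C (SE 0.09 and 0.10), from 30.5 to 50.5 and 50.4 CPM. With all 4 controls its adjusted p was 0.109 and 0.0776. Bbs10 (-0.24, adjusted p = 0.208) and Bbs12 (0.07, adjusted p = 0.568), its relatives, did not pass at 42.5 °C. Cct6b, the copy of Cct6a best known from testis, had between 0 and 5 counts per library, at or near the floor.

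The genes whose pattern was most like the mean of the 6 subunits were found by the root mean square difference of log2 levels, set to 0 at 37 °C A to C, over 15 libraries. The nearest of 10621 other genes was Psmd1, a gene of the regulatory particle of the proteasome, at 0.0266, followed by Sf3a3, of the splicing factor SF3a, at 0.0281. Ppp3cb (calcineurin), Psma3 (proteasome core), Cltc (clathrin heavy chain) and Rsl1d1 (nucleolar) lay between 0.0359 and 0.0371, and the other 2 of the nearest 8 are listed by identifier only. The median distance over all genes was 0.213. The ranking depended on the measure: with every profile scaled to unit SD the nearest 4 were Smndc1, a splicing factor gene, at 0.232, and 3 genes listed by identifier only, none of them among the 8 above. The subunits' own distances from their mean ran from 0.0407 for Cct8 to 0.142 for Tcp1. They cannot be ranked against the genes above, which were picked as the nearest, and each subunit enters the mean itself. These distances are descriptions over libraries that share controls.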

How the data were processed

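RNA of 16 CHO cultures was sequenced. After trimming and mapping to CHOK1GS_HDv1 in CLC Genomics Workbench, the authors deposited raw read counts per gene. The annotation, strand setting and treatment of reads with several mapping places are not given in the sources used here, so reads of pseudogenes or overlapping genes could be included. Library 37 °C D was left out because the counts listed in the study's supplement match the other 15 libraries.

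Groups were compared in pairs with edgeR 4.0.16 in R 4.3.3 (limma 3.58.1), by glmQLFTest after filterByExpr and TMM, with Benjamini-Hochberg adjustment over all genes tested. Intervals use the moderated degrees of freedom. Log2 levels used a prior count of 2. Scripts were tested on simulated data. Alternatives were DESeq2 1.42.0, other size factors, filters (none, or at least 10 counts), all 4 controls, 1 fit over all groups, a replicate block, a 1.5-fold rule, glmTreat, each library left out and, added after the data were seen, library totals. The partner lists were also run with DESeq2's size factors, library totals and all 4 controls, again after the data were seen.

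The members and gene lists were chosen with earlier results of these data known. All members found were named. From each list at most 4 genes per comparison were named, the largest changes among those that passed, or all members of lists of up to 4. Gnb1, Pfdn5 and Pfdn6 were named outside this rule, after their values were seen. RefSeq names of CriGri-PICRH-1.0, another build, were used only for which genes neighbour each other.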

Additional observations from a re-analysis of the deposited data

Results flagged for a closer look

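The Cct4 level of 862 CPM in 37 °C D lay far from the other controls, whose nearest was 674 CPM. The gap made up 0.855 of the range of the 4 cultures. Of 24 groups of 4 examined, 1 was set apart in this way, and chance sets apart about 1 group in 20.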

How the results depend on the processing

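The 48 group levels recomputed with library totals or DESeq2's size factors all stayed within 1 SD. Over the alternatives other than leaving out a library, 285 log2 fold changes kept their direction and side of the threshold, 36 lost the call, 11 gained one and 10 changed direction. The cause was not tested, except that the 1.5-fold rules ask for more than any subunit showed. With the 1.5-fold rule and with glmTreat, 0 subunits were higher in each of the 4 comparisons that had calls (main counts 1 for 40 °C 6 h and 5 for 42.5 °C against 37 °C, 4 and 3 for 42.5 °C against 40 °C 1 h and 6 h). With all 4 controls 0 were higher at 40 °C 6 h and 0 at 42.5 °C, by edgeR. In that fit the log2 fold changes after 40 °C for 1 h were -0.1079 for Tcp1, -0.0311 for Cct4, -0.0577 for Cct5, -0.0256 for Cct7 and -0.0367 for Cct8, and Cct5 at 42.5 °C had -0.0139. One fit over all groups gave 3 higher at 40 °C 6 h against 37 °C, and no filter gave 1 lower there and 1 lower for 6 h against 1 h at 40 °C, in both cases Tcp1. Library totals gave 2 higher for 42.5 °C against 40 °C 1 h, and turned Tcp1 at 40 °C 1 h to -0.0071, Cct5 for 42.5 °C against 40 °C 1 h to -0.0262 and Cct7 for 42.5 °C against 40 °C 6 h to -0.0174.

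Whether the replicate letters pair the cultures is not given by the labels, and weak correlations cannot settle it. After subtracting group means, the correlation averaged 0.0483 over 21 pairs with the same letter and -0.0161 over 63 pairs with different letters. Of 15 libraries, 5 correlated best with their own letter. With the letter as a block, 1 subunit (Tcp1) was lower at 40 °C 6 h against 37 °C (-0.22, adjusted p = 0.0367) and 1 (Tcp1) at 40 °C 6 h against 1 h (-0.17, adjusted p = 0.0457), Cct7 passed for 42.5 °C against 40 °C 1 h (adjusted p = 0.0469), Cct5 for 42.5 °C against 40 °C 6 h (adjusted p = 0.0417), and Tcp1 at 40 °C 1 h turned to -0.0208. The block changed no other call.

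Leaving out each library gave counts of higher subunits from 0 to 3 at 40 °C 6 h, from 5 to 6 at 42.5 °C, from 0 to 1 for 6 h against 1 h at 40 °C, and from 4 to 5 and 3 to 4 for 42.5 °C against 40 °C 1 h and 6 h. Lower subunits numbered 0 to 1 at 40 °C 6 h against 37 °C and against 1 h, and 0 in the other comparisons. The log2 fold change changed direction for Tcp1 at 40 °C 1 h (-0.072 to 0.0774), and for Cct5 (-0.0505 to 0.0171) and Cct8 (-0.0301 to 0.0252) at 40 °C 6 h. At 40 °C 6 h against 37 °C the count of higher subunits was 0 without 37 °C A or 37 °C B, 3 without 40 °C 6 h A (Cct2, Cct4 and Cct7) and 2 without 40 °C 6 h D (Cct4 and Cct7), and Tcp1 passed as lower without 37 °C A or 40 °C 6 h D. For 6 h against 1 h at 40 °C, Tcp1 passed as lower without 40 °C 1 h A or 40 °C 6 h D, and Cct4 as higher without 40 °C 6 h A. Cct5 passed at 42.5 °C against 37 °C without 37 °C C or 42.5 °C A and against 40 °C 6 h without 40 °C 6 h D or 42.5 °C A, and Cct7 passed against 40 °C 1 h without 40 °C 1 h A. Every subunit had at least 6044 counts per library, and the number of cultures, 3 or 4 in a group, sets the precision. The order of the subunits by level per length was not run, since gene lengths were not used here.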

Other observations

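The genes next to the subunit genes on their chromosomes were looked up by symbol, an idea that came after the data were seen. Of 12 neighbours 5 could be tested. Mrpl18, a mitochondrial ribosomal protein gene next to Tcp1, rose after 6 h at 40 °C (log2 fold change 0.20, SE 0.06, adjusted p = 0.0117) and after 1 h at 42.5 °C (0.21, SE 0.06, adjusted p = 0.0158), by edgeR against 37 °C A to C. Tcp1 itself rose at 42.5 °C and had a lower value that did not pass after 6 h at 40 °C, so the neighbours' values had opposite signs there. Pradc1, next to Cct7, rose by 0.32 after 6 h at 40 °C (adjusted p = 0.00199). Whether reads of Tcp1 and Mrpl18 overlap was not tested.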
